A study of Arabidopsis thaliana with 6 samples.

Results

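The evening complex is a repressor of the plant circadian clock, built from the proteins ELF3, ELF4 and LUX. It was followed here through 6 Arabidopsis thaliana genes, taken by their gene identifiers from the 38194 genes of the deposited expression table: ELF3 (AT2G25930), ELF4 (AT2G40080), LUX (AT3G46640), the LUX relative BOA (AT5G59570), and the ELF4-like genes EFL1 (AT2G29950) and EFL3 (AT2G06255). All 6 were listed with a level in every library, and 5 of them reached the mean of 1 RPKM (reads scaled to gene length and library size) that was asked for before a gene was tested, EFL3 through its Col-0 libraries, since its mutant mean was 0.977 RPKM. BOA did not reach it. Across the splicing tables, ELF3 had 3 intron rows and 15 junction rows, LUX had 2 and 2, BOA had 2 intron rows, EFL3 had 1 intron row, and ELF4 and EFL1, which have no annotated intron, had 0. The exon skipping table held 0 rows of these genes.

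The samples were polyadenylated rosette leaf RNA, as 3 libraries from the mac3a mac3b double mutant and 3 from wild-type Col-0. Plants of both genotypes were 40 days old, had not entered flowering and grew at 22 °C under 8 h of light and 16 h of darkness. MAC3A and MAC3B are paralogous U-box proteins of the MOS4-associated complex, a complex bound to the spliceosome. The labels name no mutant alleles and no time of day of collection, and nothing in them says that the libraries of a genotype came from separate plants or pools, so p-values measure only the spread between these libraries.

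In the working complex ELF3 is the scaffold, ELF4 binds ELF3, and LUX is the MYB-type (GARP family) protein that recognises DNA. Their transcripts accumulate around dusk, and at night the complex represses genes such as PRR9, PRR7, GI, PIF4 and PIF5, through which it holds back growth and flowering. The morning factors CCA1 and LHY in turn repress many evening genes through a promoter motif called the evening element.

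The libraries held between 80626787 and 108909613 unique reads over the 13069 genes with deposited read counts. MAC3A itself stood at 5.92 to 8.87 RPKM in the mutant and 16.7 to 22.0 RPKM in Col-0, and MAC3B at 5.64 to 8.98 RPKM in the mutant and 35.4 to 49.0 RPKM in Col-0. The 3 leaf markers (RBCS1A, CAB3, LHCB2.1) summed to 17249 to 27168 RPKM in the mutant and 7333 to 24544 RPKM in Col-0. Of these, LHCB2.1 did not overlap between the genotypes, at 3062 to 4554 RPKM in the mutant and 582 to 2281 RPKM in Col-0, while RBCS1A and CAB3 overlapped. Of the other tissues, the 3 root markers summed to 7.96 to 16.9 RPKM in the mutant and 7.67 to 8.75 RPKM in Col-0, nearly all of it SCR, which is also expressed in leaves; the 4 flower markers summed to 1.05 to 1.09 RPKM in the mutant and 0.36 to 0.71 RPKM in Col-0, with LFY at 0 in every library, and the 2 seed markers to 0.02 to 0.05 RPKM in the mutant and 0.01 to 0.02 RPKM in Col-0. The flower sum, nearly all of it AG, did not overlap between the genotypes, and its part in the results on the clock genes was not tested.

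ELF3, ELF4, LUX and BOA were each lower in every mac3a mac3b library than in any Col-0 library. In limma's fit across all genes ELF4 and LUX passed, and ELF3 passed when the replicate number was included as a block. EFL1 and EFL3 also had lower mutant means, but their libraries overlapped and neither passed. In leaf RNA as a whole, fewer cells expressing a gene and less RNA per cell cannot be told apart. With no time of day of collection named, a lower level and a shift in daily timing cannot be told apart either.

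ELF3, the scaffold, had 12.5, 11.4 and 13.4 RPKM in mac3a mac3b replicates 1, 2 and 3, against 32.8, 32.7 and 26.5 RPKM in Col-0 replicates 1, 2 and 3. The mutant libraries lay close together and all below the lowest Col-0 library. The means were 12.4 ± 1.01 RPKM in the mutant and 30.7 ± 3.66 RPKM in Col-0 (SD, n = 3 each), so the mutant kept 40.5% of the wild-type level. On the log2(RPKM + 1) scale the fold change was −1.23 (SE 0.16), at Benjamini-Hochberg limma adjusted p = 0.0805 (0.0255 when blocked by replicate number). Over 22 other settings, the adjusted p of ELF3 ran from 1.5e-09 (DESeq2 on read counts, with the block) to 0.337 (limma, 1 library left out), and the log2 fold change from −1.39 to −1.13.

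ELF4, the small ELF3-binding subunit, had 6.72, 16.1 and 10.7 RPKM in mac3a mac3b replicates 1, 2 and 3, against 77.4, 106.3 and 126.9 RPKM in Col-0 replicates 1, 2 and 3. The highest mutant library was far below the lowest Col-0 library. ELF4 averaged 11.2 ± 4.72 RPKM in the mutant and 103.5 ± 24.9 RPKM in Col-0 (SD, n = 3 each), which is 9.26-fold lower. Its log2 fold change on the log2(RPKM + 1) scale was −3.15 (SE 0.34), at limma adjusted p = 0.0484 (0.0145 when blocked by replicate number). The call without the block was near the threshold: leaving out any 1 library ended it, with limma adjusted p from 0.0504 (without mac3a mac3b replicate 2) to 0.269 (without Col-0 replicate 2).

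LUX, the DNA-binding subunit, had 1.80, 2.24 and 2.86 RPKM in mac3a mac3b replicates 1, 2 and 3, against 11.3, 15.2 and 10.2 RPKM in Col-0 replicates 1, 2 and 3. Again the groups did not overlap. The means were 2.30 ± 0.533 RPKM in the mutant and 12.2 ± 2.61 RPKM in Col-0 (SD, n = 3 each), 18.9% of the wild-type level. The log2 fold change on the log2(RPKM + 1) scale was −1.99 (SE 0.21), at limma adjusted p = 0.0454 (0.0228 when blocked by replicate number). Leaving out any 1 library ended this call too, with limma adjusted p from 0.0911 (without mac3a mac3b replicate 2) to 0.220 (without Col-0 replicate 2). At its 3′ end LUX shares 1507 bases with AT3G46650 on the opposite strand, and since the sources used here do not say whether strand was used in counting, reads of the pair cannot be told apart there. AT3G46650 was listed at 0.30 to 2.18 RPKM in the mutant and 0.01 to 0.95 RPKM in Col-0.

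BOA, a close relative of LUX that also binds DNA, had 0.15, 0.10 and 0.18 RPKM in mac3a mac3b replicates 1, 2 and 3, against 0.47, 0.38 and 0.37 RPKM in Col-0 replicates 1, 2 and 3. These levels correspond to 43 to 62 reads per mutant library and 157 to 207 reads per Col-0 library, estimated from the level, the gene length and the scale of each library. All mutant values were below all Col-0 values, and the mutant mean was 35.2% of the Col-0 mean. An exact two-sided permutation test on BOA alone gave p = 0.1 (n = 3 each), the smallest that 3 against 3 libraries can give. In the fit without a filter on low values its limma adjusted p was 0.145. The authors' deposited table lists BOA with a log2 fold change of −1.56 and an adjusted p of 0.000935. In the same DESeq2-style columns the adjusted p was 3.4e-07 for ELF3, 3.1e-12 for ELF4 and 2.1e-11 for LUX. It was 0.413 for EFL1 and 0.622 for EFL3. BOA overlaps UGT76E1 on the opposite strand over 1896 bases, and UGT76E1 was listed at 0.13 to 0.38 RPKM in the mutant and 0 to 0.28 RPKM in Col-0.

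EFL1, an ELF4-like gene, had 0.52, 2.1 and 0.52 RPKM in mac3a mac3b replicates 1, 2 and 3, against 0.56, 6.20 and 2.39 RPKM in Col-0 replicates 1, 2 and 3. Replicate 2 was the highest in both genotypes, and the groups overlapped. The log2 fold change of −0.80 (SE 0.59) missed the threshold, at limma adjusted p = 0.702 (0.158 when blocked by replicate number). It was −1.36 without Col-0 replicate 1 and −0.25 without Col-0 replicate 2. Of the 853 bases of EFL1, 828 lie inside CYP5 (AT2G29960) on the opposite strand, which was listed at 16.98 to 24.2 RPKM in the mutant and 16.3 to 22.3 RPKM in Col-0. The level of EFL1 is therefore uncertain, because the strand of the reads was not stated.

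EFL3, another ELF4-like gene, had 0.39, 1.95 and 0.59 RPKM in mac3a mac3b replicates 1, 2 and 3, against 1.08, 2.94 and 1.54 RPKM in Col-0 replicates 1, 2 and 3. Here too replicate 2 was highest in both genotypes and the groups overlapped, although the mutant was lower in each of the 3 same-numbered pairs. The log2 fold change was −0.56 (SE 0.37), at limma adjusted p = 0.665 (0.0967 when blocked by replicate number). Leaving out 1 library gave −0.89 (without mac3a mac3b replicate 2) to −0.30 (without Col-0 replicate 2), and a pseudocount of 0.1 gave −1.03. All 5 tested members, EFL3 among them although it met the filter through Col-0, were lower in 3 of 3 same-numbered pairs, which also held for 4012 of the 17163 tested genes (23.4%). In the first pair EFL1 stood at 92.9% of Col-0.

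**Figure D1:**
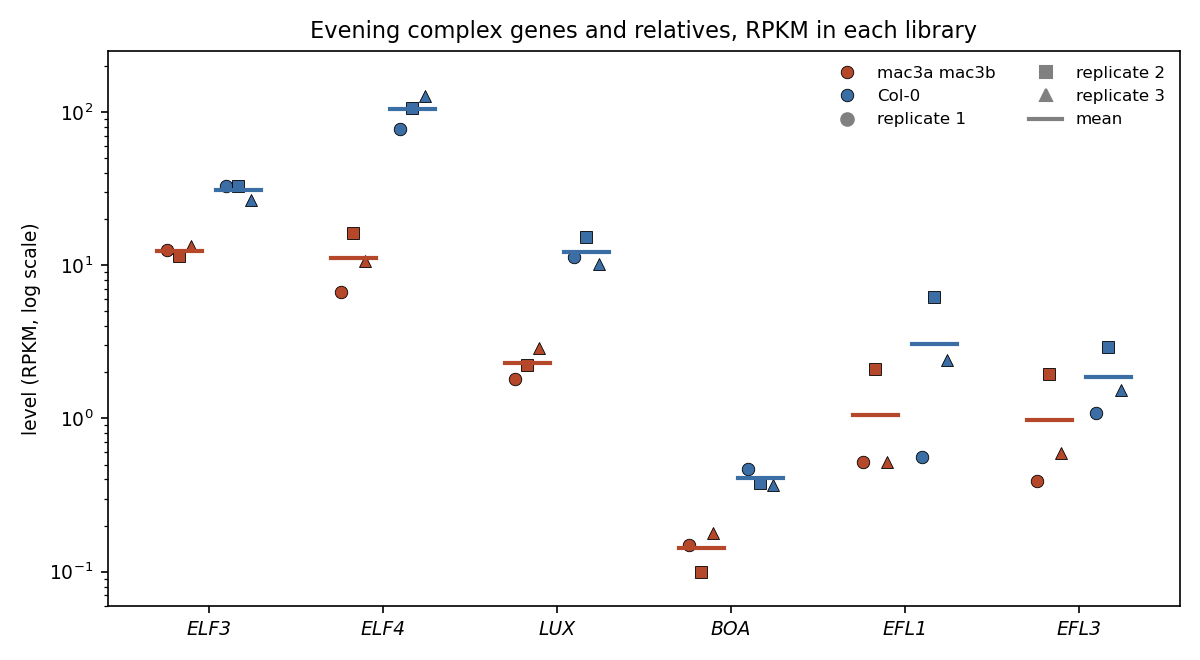
Level of each gene in RPKM (vertical axis, log scale) in every library, with mac3a mac3b in red on the left of each gene and Col-0 in blue on the right. Symbols mark the replicate number and horizontal lines the group means. The groups are apart for ELF3, ELF4, LUX and BOA and overlap for EFL1 and EFL3, whose replicate 2 is highest in both genotypes.

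Against the whole table, 2 of the 5 tested genes passed as lower without the block, where 9 of 17163 tested genes did (0.0524%; 18 in either direction, 0.105%). With the replicate block 3 of the 5 passed as lower, where 313 of 17163 genes did (1.82%; 776 in either direction, 4.52%). In 3 of the 5, and in BOA, every mutant library was below every Col-0 library, which held for 1250 of the 17163 tested genes (7.28%; 2820 were apart in either direction, 16.4%). The median log2 fold change over all tested genes was 0.01 and the median absolute value 0.21.

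The order of the levels differed between the genotypes at its top. In the mutant the order from the highest mean down was ELF3, ELF4, LUX, EFL1, EFL3 and BOA, and ELF3 overlapped ELF4. In Col-0 it was ELF4, ELF3, LUX, EFL1, EFL3 and BOA, and only EFL1 and EFL3 overlapped among neighbours. In the mutant LUX also overlapped EFL1, and EFL1 overlapped EFL3. The ratio of the ELF4 level to the ELF3 level, both per length, was 0.539, 1.42 and 0.797 in mac3a mac3b replicates 1, 2 and 3, against 2.36, 3.25 and 4.80 in Col-0 replicates 1, 2 and 3. The ratio of LUX to ELF3 was 0.144, 0.197 and 0.213 in the mutant libraries, against 0.343, 0.463 and 0.386 in the Col-0 libraries. Both ratios were lower in every mutant library than in any Col-0 library, and an exact two-sided permutation test gave p = 0.1 for each (n = 3 each), the smallest possible. The ratio of ELF4 to LUX overlapped between the genotypes (exact permutation p = 0.3, n = 3 each). BOA amounted to 8.33%, 4.46% and 6.29% of the LUX level in the mutant libraries, and to 4.18%, 2.51% and 3.63% in the Col-0 libraries (exact permutation p = 0.1, n = 3 each). These 4 ratios were the ones compared.

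The genes around the complex were read from lists of its relatives, targets, regulators and binding proteins. Of 4 relatives, 3 could be tested and 0 passed limma with or without the block (1 had an unadjusted p under 0.05; 1 relative had read counts, and edgeR and DESeq2 called 0). EFL4, which had the largest change among them, was at 4.88, 6.36 and 4.51 RPKM in the mutant and 9.09, 7.09 and 6.91 RPKM in Col-0, without overlap. Its log2 fold change was −0.48 (SE 0.19), at limma adjusted p = 0.416. The fourth relative, AT3G21320, averaged 0.01 RPKM in both genotypes.

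Of the 5 genes that the complex binds and represses, 0 passed limma without the block (1 had an unadjusted p under 0.05; edgeR called 0 and DESeq2 1), and 1, PRR9, passed as higher with it. PRR9, a pseudo-response regulator of the morning, had 28.3, 35.7 and 65.0 RPKM in mac3a mac3b replicates 1, 2 and 3, against 4.38, 7.16 and 7.99 RPKM in Col-0 replicates 1, 2 and 3. The groups did not overlap and the mutant mean was 6.61-fold higher. Its log2 fold change was 2.497 (SE 0.35), at limma adjusted p = 0.0908 (0.0145 when blocked by replicate number, 0.0914 with the block and without replicate 1). For the other 4, PRR7, GI, PIF4 and PIF5, the log2 fold changes lay between −0.77 (GI) and 0.39 (PIF5), and the limma adjusted p was above the threshold in both fits.

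Of 12 regulators of the members' transcription, limma called 1 lower and 0 higher without the block, and 1 lower and 5 higher with it. Without the block 6 had an unadjusted limma p under 0.05, edgeR called 0, and DESeq2 called 1 lower and 4 higher (CCA1, LHY, RVE8 and LNK2). The one that was lower in both limma fits was TOC1, an evening-phased repressor of CCA1. TOC1 had 9.09, 11.9 and 16.2 RPKM in mac3a mac3b replicates 1, 2 and 3, against 56.6, 54.3 and 61.8 RPKM in Col-0 replicates 1, 2 and 3, with a log2 fold change of −2.16 (SE 0.23) at limma adjusted p = 0.0454. Leaving out any 1 library raised it to between 0.0919 (without mac3a mac3b replicate 2) and 0.253 (without Col-0 replicate 2). The 5 that were higher with the block were CCA1, LHY, RVE8, RVE4 and LNK2, which are MYB-like morning factors and, in LNK2, a coactivator that works with RVE8.

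CCA1, the morning repressor of evening genes, had 30.9, 30.7 and 58.1 RPKM in mac3a mac3b replicates 1, 2 and 3, against 1.22, 3.56 and 6.90 RPKM in Col-0 replicates 1, 2 and 3. Its log2 fold change of 3.18 (SE 0.49) came at limma adjusted p = 0.109 (0.0160 when blocked by replicate number). LHY, its close relative, had a log2 fold change of 1.22, RVE8 of 1.81, RVE4 of 0.85 and LNK2 of 1.02, and their limma adjusted p-values with the block lay between 0.0254 and 0.0362. LHY moved to 2.52 with a pseudocount of 0.1. With the block and 1 replicate number left out, LHY passed in 0 of 3 fits (adjusted p 0.0530 to 0.107), RVE8, RVE4 and LNK2 in 1 of 3 each, and CCA1 and TOC1 in 2 of 3 each. RVE4 also missed the threshold with the block and equal totals (limma adjusted p = 0.0578). Each of these 5 genes, named because they passed as higher in the same libraries, was higher in every mutant library than in any Col-0 library. Over all 17163 tested genes, 2820 (16.4%) were apart in either direction, 1250 of them (7.28%) with the mutant lower. FHY3, FAR1 and HY5, which bind the ELF4 promoter and activate it, had log2 fold changes of −0.04, −0.09 and 0.66, with limma adjusted p above the threshold in both fits.

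Of 10 genes for proteins that bind the complex or co-purify with it, 0 passed limma without the block (3 had an unadjusted p under 0.05; of 9 with read counts edgeR called 0 and DESeq2 1), and 2, BBX19 and TZP, were higher with it. BBX19, a B-box protein that binds ELF3, had 3.71, 4.38 and 12.9 RPKM in the mutant and 1.04, 1.53 and 2.13 RPKM in Col-0. Its log2 fold change was 1.48 (SE 0.43), at limma adjusted p = 0.303 (0.0424 when blocked by replicate number). TZP, a nuclear zinc-finger protein, had a log2 fold change of 1.11, at limma adjusted p = 0.426 (0.0487 when blocked by replicate number), and of 0.63 without mac3a mac3b replicate 3. With the block and 1 replicate number left out, TZP passed in 0 of 3 fits (adjusted p 0.0615 to 0.152) and BBX19 in 1 of 3 (0.0499 to 0.123). For each of PHYB, COP1 and the other 6 genes of this list the limma adjusted p was above the threshold in both fits. The median log2 fold change was −0.26 over the tested relatives, 0.02 over the targets, 0.50 over the regulators and 0.01 over the binding proteins, beside 0.01 over all tested genes.

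**Figure D2:**
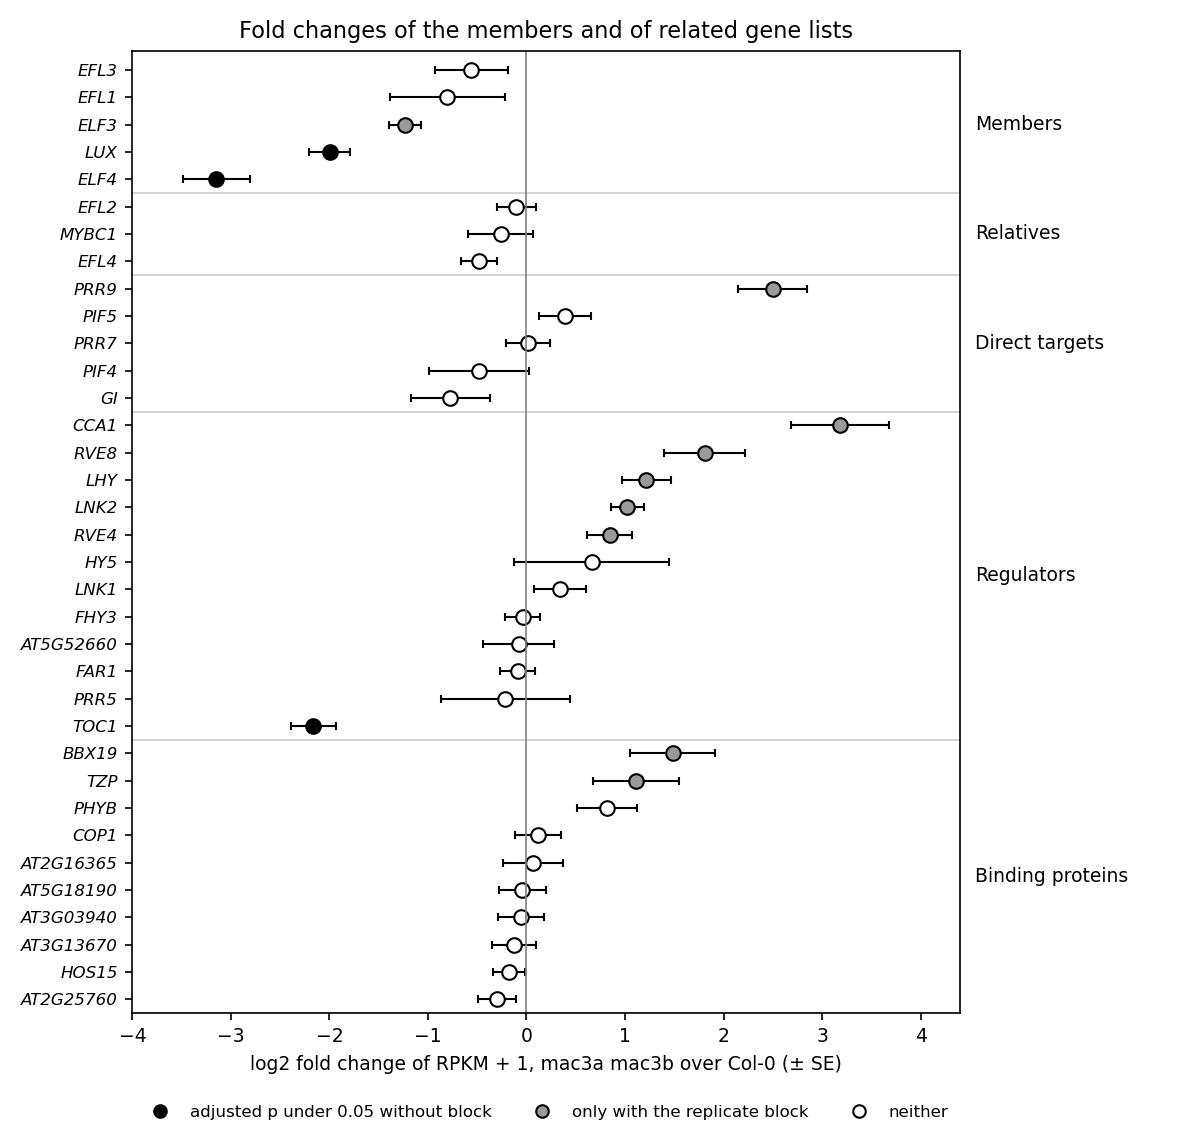
Log2 fold change of RPKM + 1, mac3a mac3b over Col-0, with its standard error (horizontal axis), for the 5 tested members and the tested genes of the 4 related lists. Black points passed the limma adjusted threshold of 0.05 without the replicate block, grey points only with it. ELF4, LUX and TOC1 are black and lie left of 0; CCA1 at 3.18 lies farthest right.

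The genes whose pattern over the 6 libraries was most like that of a member were found by the root mean square difference of log2(RPKM + 1) after subtracting each gene's mean. For ELF3 these were MAP1C (difference 0.149), AT2G05995 (0.1497) and AT1G52270 (0.179). MAP1C, a methionine aminopeptidase, had 32.0, 26.4 and 36.8 RPKM in the mutant and 74.1, 65.0 and 53.9 RPKM in Col-0. For ELF4 the nearest genes were PRR3 (0.299), JMJD5 (0.312) and PCR1 (0.321). PRR3, a pseudo-response regulator, had 2.61, 7.21 and 8.38 RPKM in the mutant and 36.9, 50.2 and 53.3 RPKM in Col-0. JMJD5, a jumonji-domain protein, had 0.69, 1.67 and 0.93 RPKM in the mutant and 7.72, 17.9 and 24.7 RPKM in Col-0. For LUX they were AT3G59350 (0.1499), TOC1 (0.241) and AT3G18320 (0.242). Among the members, ELF3 and LUX were 0.414 apart, EFL1 and EFL3 0.400, and ELF4 and EFL3, the most distant pair, 1.33. EFL1 was nearest to UGT73B5 (0.183), AT4G23880 and AT3G24927, and EFL3 to AT3G50210 (0.066), AT5G23460 and AT5G28830. In each of these 6 genes replicate 2 was the highest library of both genotypes, as in EFL1 and EFL3. The genes were picked for likeness over these libraries, so this peak follows from the choice.

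Promoter sequence was read for the members because 4 of them were lower in every mutant library than in any Col-0 library. Motifs were searched on both strands from 250 bases before to 50 bases after each annotated start in RefSeq's TAIR10.1 annotation, over 27443 protein-coding genes. A match describes letters only, and the windows shown end before or at the start. In LUX and BOA capitals mark the evening element AAAATATCT, which in BOA is read on the opposite strand. In ELF4 they mark first CACGCGC, the site bound by FHY3 and FAR1, on both strands with overlap, and then GATACG, a site bound by LUX.
LUX, chr3:17182942-17183041, plus strand: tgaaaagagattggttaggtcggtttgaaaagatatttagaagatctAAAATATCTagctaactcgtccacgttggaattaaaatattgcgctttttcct
BOA, chr5:24003788-24003887, plus strand: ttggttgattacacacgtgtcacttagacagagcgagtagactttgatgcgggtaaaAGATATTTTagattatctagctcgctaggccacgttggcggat
ELF4, chr2:16735004-16735083, minus strand: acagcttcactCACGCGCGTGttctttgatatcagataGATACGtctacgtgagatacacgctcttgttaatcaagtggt

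The evening element, as an exact match, was present in 2 of the 6 members, at −53 in LUX and at −43 in BOA relative to the start, and in 2.82% of all promoters. The ELF4 window that was searched begins before the stretch shown above. It opens with AAATATCT, the element without its first letter, and the base before it was not searched. AAATATCT recurs farther into this searched window on both strands, where the missing letter differs. A related CCA1-binding site, AAAAATCT, was present in EFL1 and in 7.88% of promoters. Of the LUX-binding sites, GATACG was present in ELF3 and ELF4 (5.54% of promoters), GATATG in ELF4 and EFL1 (14.8%), and GATTCG in 0 of the 6 (9.58%). The G-box CACGTG was present in LUX and BOA (7.68%), and CACGCGC in ELF4 (1.34%). EFL3 held none of these letters in its window.

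Splicing of the members was read first as intron retention, given here as the average read depth in an intron as a percentage of the depth in the intron plus its neighbouring exons. In the mutant, ELF3 kept more of introns 1 and 3 but not detectably more of intron 2. The annotated intron of EFL3 also passed as higher, but its groups overlapped and it passed in only 5 of 9 other settings. Over all introns, 59069 of 94773 tested were higher in the mutant (62.3%), with a median log2 change of 1.83, so higher retention in a member is what most introns showed.

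ELF3 intron 1 (362 bases, chr2:11059678-11060039) was retained at 1.18%, 0.472% and 0.530% in mac3a mac3b replicates 1, 2 and 3, against 0.0603%, 0.113% and 0.0131% in Col-0 replicates 1, 2 and 3. All mutant libraries were above all Col-0 libraries. The log2 change of the intron to exon depth ratio was 2.91 (SE 0.49), at limma adjusted p = 0.00220. Depth in the intron itself was low, at 1.65 to 3.19 in the mutant and 0.10 to 1.27 in Col-0. An antisense RNA gene, AT2G08135, lies across the end of this intron and was listed at 0.02 to 0.03 RPKM in the mutant and 0.02 RPKM in Col-0.

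ELF3 intron 3 (90 bases, chr2:11062069-11062158) had the largest log2 change among the tested member introns. It was retained at 3.15%, 1.87% and 2.97% in mac3a mac3b replicates 1, 2 and 3, against 0.260%, 0.0349% and 0.0277% in Col-0 replicates 1, 2 and 3. The log2 change was 4.47 (SE 0.60), at limma adjusted p = 0.00119, and it passed under each of 10 other settings, with adjusted p between 0.00100 and 0.00652. The mean depth in intron 3 was 9.56 in the mutant and 1.22 in Col-0, while the neighbouring exons averaged 355.7 in the mutant and 1061 in Col-0. More intron 3 reads were thus present in the mutant although ELF3 exon reads were fewer.

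The sequence of intron 3 is shown because its log2 change was the largest among the tested member introns, although in percentage points it moved by 2.56 and the annotated intron of EFL3 by 4.33. Capitals mark its first and last 2 bases, and read in frame from exon 3 it holds a TGA stop codon at base 58.
ELF3 intron 3, plus strand: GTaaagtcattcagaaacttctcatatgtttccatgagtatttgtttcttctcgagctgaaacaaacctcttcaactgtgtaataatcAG

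A transcript that kept intron 3 alone would encode 375 residues before that stop, one that kept intron 1 alone 76 and one that kept intron 2 alone 339, where the annotated reading frame has 695. These lengths were read from the genome sequence and no protein was measured.

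ELF3 intron 2 (1180 bases, chr2:11060837-11062016) was retained at 11.4%, 12.96% and 8.02% in mac3a mac3b replicates 1, 2 and 3, against 13.4%, 12.3% and 12.1% in Col-0 replicates 1, 2 and 3. The groups overlapped, and the log2 change of −0.27 (SE 0.40) came at limma adjusted p = 0.567. In Col-0 its mean of 12.6 ± 0.662% (SD, n = 3) was already above 10%, a level reached by 3.82% of all tested introns. Depth over the whole intron does not separate unspliced RNA from RNA of an exon spliced inside it. In Col-0 a mean of 19.6% of the junction reads across intron 2 entered 2 acceptors inside it, as described below. The comparisons with intron 2 that follow share this limit. Within each library, the depth ratio of intron 3 was compared with that of intron 2: the log2 difference averaged −2.09 ± 0.722 in the mutant and −6.83 ± 1.01 in Col-0 (SD, n = 3 each). For intron 1 against intron 2 it averaged −3.84 ± 0.698 in the mutant and −7.02 ± 0.499 in Col-0 (SD, n = 3 each). Neither difference overlapped between the genotypes, and for each the exact two-sided permutation p was 0.1 (n = 3 each), the smallest possible. Both comparisons reuse the depths behind the calls on introns 1, 2 and 3, so they are no separate support for those calls. Introns of 1000 bases or more were higher in the mutant in 190 of 403 cases (47.1%), with a median log2 change of 1.17.

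EFL3 intron 1 (1536 bases, chr2:2457794-2459329), the longest intron among the members, was retained at 10.02%, 4.74% and 1.19% in mac3a mac3b replicates 1, 2 and 3, against 0%, 2.20% and 0.747% in Col-0 replicates 1, 2 and 3. The groups overlapped, and each mutant library was above the Col-0 library of the same number. The log2 change was 1.90 (SE 0.58), at limma adjusted p = 0.0209. The intron depths behind it were 0.20 to 3.36 in the mutant and 0 to 2.44 in Col-0, and the call ended with a smaller pseudocount (adjusted p 0.0953) and without mac3a mac3b replicate 1, Col-0 replicate 1 or Col-0 replicate 3 (0.0593, 0.0620 and 0.0558).

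LUX intron 2 (134 bases, chr3:17185052-17185185), which is exonic in another LUX transcript, was retained at 6.39%, 19.3% and 22.6% in mac3a mac3b replicates 1, 2 and 3, against 23.9%, 20.2% and 14.2% in Col-0 replicates 1, 2 and 3. The groups overlapped and the log2 change of −0.35 (SE 0.57) came at limma adjusted p = 0.600. The other LUX row is a gap of 2 bases between exons of different transcripts and no intron of a transcript. It was at 8.41%, 6.56% and 3.00% in the mutant and 2.46%, 1.84% and 2.21% in Col-0, with a log2 change of 1.49 at limma adjusted p = 0.0270, which passed in 5 of 10 other settings.

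BOA intron 1 (174 bases, chr5:24004987-24005160) fell below the depth of 10 asked for. Its values were 28.5%, 25.5% and 6.38% in the mutant and 9.40%, 5.78% and 0.446% in Col-0, and each group's lowest library was replicate 3. In the fit with the depth minimum lowered to 1, its log2 change was 2.14 at limma adjusted p = 0.0288. The second BOA row, a gap of 128 bases that is no intron of a transcript, had exon depths of at most 6.45 and was not tested.

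**Figure D3:**
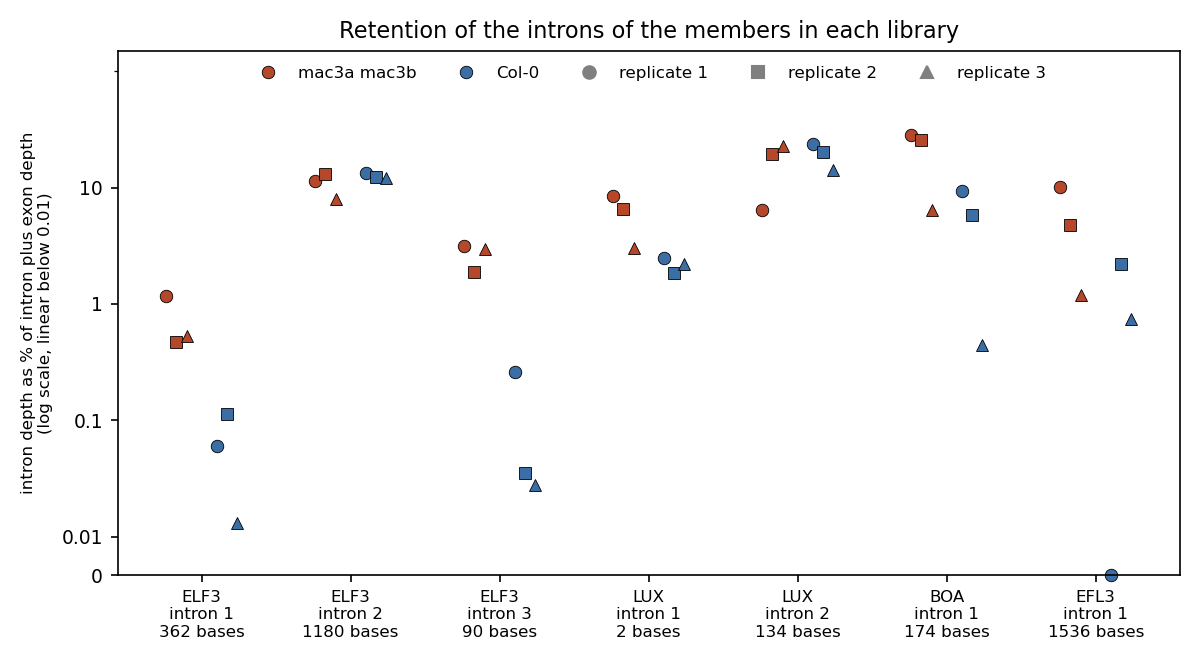
Intron depth as a percentage of intron plus exon depth (vertical axis, log scale, linear below 0.01) in every library, mac3a mac3b in red and Col-0 in blue, for the member introns with enough depth and for BOA intron 1. ELF3 introns 1 and 3 are apart between the genotypes, and ELF3 intron 2 lies between 8.02% and 13.4% in all 6 libraries.

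Junction reads also used sites inside ELF3 intron 2, from which a further exon was inferred. Most reads across this intron joined exon 2 to exon 3, but some joined exon 2 to either of 2 acceptors, from base 460 or base 463 of the intron onward, and others joined a donor farther along the intron to exon 3. Used together, these sites would bound an exon of 178 or 175 bases, at chr2:11061296-11061473, that RefSeq does not annotate. The counts do not show that the same transcripts used both ends. In Col-0 replicates 1, 2 and 3 the 2 acceptors together had 81, 77 and 49 reads, and the donor 28, 22 and 8. In mac3a mac3b replicates 1, 2 and 3 the acceptors had 16, 21 and 2 reads, and the donor 14, 4 and 0. All 15 ELF3 junctions in the deposited table begin with GT and end with AG in the genome.

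The sequence of this inferred inner exon is shown because the junctions above bound it. Capitals mark the 3 bases between the acceptors, which the longer form includes.
ELF3 exon inside intron 2, plus strand: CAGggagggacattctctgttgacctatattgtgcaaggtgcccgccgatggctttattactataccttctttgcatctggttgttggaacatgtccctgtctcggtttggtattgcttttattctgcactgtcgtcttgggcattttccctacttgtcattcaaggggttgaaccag

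Neither length is a multiple of 3. The inner exon itself holds no stop in frame. A transcript that included it would shift the frame so that a TGA stop follows at base 31 of exon 3, after 408 or 407 residues.

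Reads that joined exon 2 directly to exon 3 were 63 of 94, 122 of 159 and 120 of 124 in mac3a mac3b replicates 1, 2 and 3, against 215 of 346, 336 of 465 and 199 of 260 in Col-0 replicates 1, 2 and 3. That is 67.0%, 76.7% and 96.8% of the reads across intron 2 in the mutant and 62.1%, 72.3% and 76.5% in Col-0. The groups overlapped, and the difference of 9.86 percentage points between the means had an edgeR adjusted p of 0.684. Reads into the main acceptor of the inner exon were 14, 17 and 0 in the mutant libraries and 64, 64 and 39 in the Col-0 libraries. Their share was 14.9%, 10.7% and 0% in the mutant and 18.5%, 13.8% and 15% in Col-0, a difference of −7.23 percentage points with an edgeR adjusted p of 0.684. Both differences rested largely on mutant replicate 3: without it the log2 change of the odds was 0.13 instead of 0.91 for the direct junction, and −0.37 instead of −1.12 for the acceptor. Without mutant replicate 1 they were 1.56 and −1.73. For the 0 of 124 reads in mutant replicate 3, a count of 0 allows a share of up to 2.42%, counting error only. Reads out of the inner exon to exon 3 were 14, 4 and 0 in the mutant and 28, 22 and 8 in Col-0 (mean share 5.80 ± 7.97% in the mutant and 5.30 ± 2.56% in Col-0, SD, n = 3 each). With the reads of both its acceptors summed, the share was 17.02%, 13.2% and 1.61% in the mutant and 23.4%, 16.6% and 18.8% in Col-0. Of the 15 ELF3 junctions, 0 passed the edgeR test (0 had an unadjusted p under 0.05, and the same held with limma on the log2 ratio), which 254 of 135996 tested events did (0.187%).

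A junction from exon 1 to an acceptor inside intron 1 had 1 of 593 reads in the mutant and 5 of 1596 in Col-0. The LUX junctions had 3 reads in all in the mutant and 11 in Col-0 and were not tested.

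**Figure D4:**
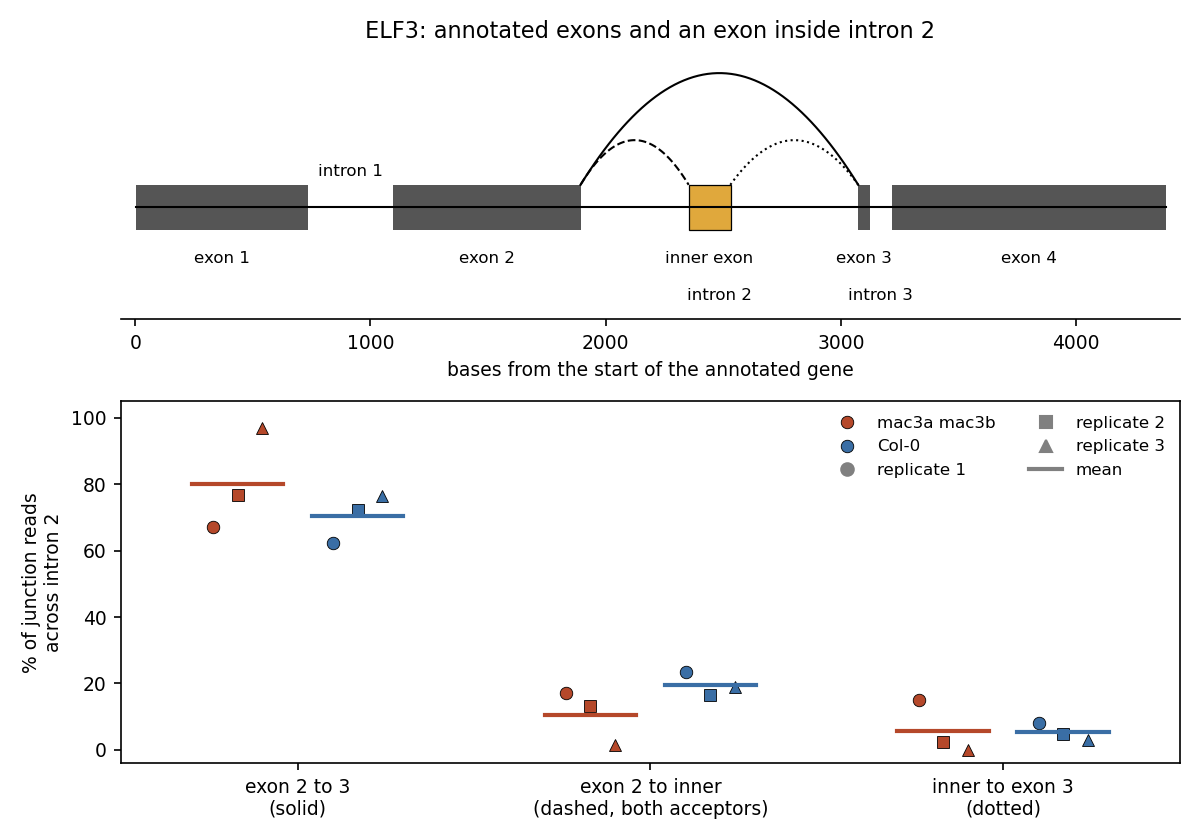
Above, the annotated exons of ELF3 (grey) and the exon inferred inside intron 2 (orange) along the gene in bases from its start, with arcs for the junctions read. Below, the percentage of junction reads across intron 2 (vertical axis) of each kind in every library, mac3a mac3b in red on the left and Col-0 in blue on the right, with lines at the means; mutant replicate 3 stands at 96.8% for the direct junction and at 0% for the junction from the inner exon to exon 3.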

How the data were processed

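Of the 6 libraries, 3 are mac3a mac3b and 3 Col-0, by their titles. Reads were handled with Trimmomatic, Bowtie2 and DESeq2 against TAIR10, per the submitters' processing notes; their roles, versions, the annotation and the strand setting are not given in the sources used here. The deposited gene table has no stated unit: they were read as RPKM because, once multiplied by gene length, they followed the deposited counts of unique reads to within 2% for 98.1% to 98.2% of 11860 genes, depending on the library. Its log2 fold change and adjusted p-value are the authors' own DESeq2-style columns, per the file headers, and are quoted only as theirs. RackJ made the splicing tables, going by the names they carry. The deposited junction table holds read counts, and the deposited intron table holds average read depth (a coverage signal). The authors' p-value and adjusted score columns of the deposited splicing tables were not used in any test. Every per-sample column was matched to a sample.

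Expression was tested with limma 3.58.1 (variance trend, R 4.3.3) on log2(RPKM + 1) over genes averaging 1 RPKM or more, a scale on which changes of low genes look smaller. For introns limma was run on the log2 ratio of intron to exon depth, each with 0.5 added, where both together reached 10 in every library, and junctions with edgeR 4.0.16 (quasi-likelihood, a trended dispersion) as genotype by read kind, with a coefficient per library, at 10 reads or more. Rows repeating another with kinds exchanged (24122) were left out. Benjamini-Hochberg adjustment ran over all features, and the threshold was 0.05. The alternatives included DESeq2 1.42.0 and edgeR on unique counts. The exon skipping test was not run, since that table holds 0 rows of the members. Each test was tried on simulated data.

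After subtracting genotype means, same-numbered libraries correlated in expression across genes with r of 0.62, 0.78 and 0.43, so the numbers were taken to pair them; no label explains the numbers. None of the 15 pairs of libraries agreed within sampling noise (chi-square per degree of freedom at least 336.8). The members, lists and named-gene rules (events past the threshold or changed by 5 percentage points; list genes past the threshold or with the list's largest change; the 3 most similar genes) were chosen with earlier results of these data known. The list genes that passed only with the block were named after their values were seen. Intervals and limits from a count of 0 cover counting error only. Sequences and annotation are RefSeq's TAIR10.1, in which the 8 deposited intron lengths of the members are equal to the annotated gaps.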

Additional observations from a re-analysis of the deposited data

How the results depend on the processing

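The fold changes of ELF3, ELF4, LUX, EFL1 and EFL3 were negative under each of the settings run, and those of EFL1 and EFL3 passed under none. ELF4, BOA, EFL1 and EFL3 had no deposited unique read counts, so edgeR and DESeq2 were not run on them. The other settings numbered 22 for ELF3 and LUX, 16 for ELF4, and 15 for EFL1 and for EFL3. ELF3 passed with the replicate block (log2 fold change −1.23), with the block and equal totals (−1.32), with edgeR on unique counts and the block (−1.30), with DESeq2 (−1.34) and with DESeq2 and the block (−1.34). ELF4 no longer passed without a filter on low values or with a mean of at least 5 RPKM (−3.15 in both) or rescaled by TMM (−3.21). LUX no longer passed without that filter or at 5 RPKM (−1.99 in both), nor with edgeR on unique counts without a block (−2.41, also without its low count filter; −2.45 with DESeq2 size factors). Leaving out 1 library gave −1.33 to −1.18 for ELF3, −3.43 to −2.86 for ELF4 and −2.11 to −1.84 for LUX, and 0 of these 18 fits passed. With the block and 1 replicate number left out, the values were −1.39 to −1.13 for ELF3 (1 of 3 passed), −3.40 to −2.996 for ELF4 and −2.22 to −1.83 for LUX (2 of 3 passed for each; without replicate 1 the adjusted p was 0.0914 for ELF4 at −3.05 and 0.0968 for LUX at −1.93). In each case the cause was not tested.

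Genes past the threshold numbered 18 without the block. They were 776 with the replicate block, 1156 with the block and equal totals, 45 without the filter, 4 at 5 RPKM, 0 with edgeR on unique counts in 3 versions (1270, 1252 and 1272 genes at an unadjusted p under 0.05), 523 with edgeR and the block, 460 with DESeq2 and 1845 with DESeq2 and the block. Leaving out 1 library gave 0 to 11, and with the block and 1 replicate number left out 0 to 394 (237 without replicate 2). Fewer samples, or other genes tested, are part of these settings. Donor and acceptor events past the threshold numbered 254, with 403 at 60 reads of each kind, 605 at that limit with the replicate block (an alternative chosen after seeing the data), 22 with limma on the log2 ratio, and 87 to 179 with 1 library left out.

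Same-numbered libraries deviated less together in splicing (r of 0.05 to 0.12 for introns and 0.02 to 0.05 for junctions), so the replicate block there rests on a number only; with it no call on a member intron or junction changed. The following values changed sign when 1 library was left out. The log2 change of LUX intron 2 ran from −0.72 to 0.22, and the log2 change of the odds of the ELF3 junction from the inner exon to exon 3 from −1.91 to 0.53. BOA stood at 30.7% to 40.6% of the Col-0 mean with 1 library left out.

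Depth limits BOA, EFL1 and EFL3 (43 to 207, 41 to 689 and 30 to 319 reads per library) and the ELF3 junctions (94 to 159 reads across intron 2 in the mutant and 260 to 465 in Col-0).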
